A study of Rattus norvegicus with 42 samples.

Results

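The genes described here are the rat chemokines of the CC and CXC families and their receptors, taken as every probe set whose only platform gene symbol begins with Ccl, Cxcl, Ccr or Cxcr followed by a digit. This choice of members used names alone, although the family itself was picked with earlier results of these data known. It gave 50 of 31042 tested probe sets, which stand for 38 of 14217 named genes, 27 ligands and 11 receptors. Where a gene had several probe sets, counts used the one with the highest mean over all arrays.

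Liver, brain and lung RNA from 1 untreated rat, 9 to 12 weeks old, was labelled and hybridised to Affymetrix arrays, alone or after mixing the labelled cRNAs in known shares. The 42 arrays form 14 groups of 3, 3 pure tissues and 11 mixtures. A mixture is written as percent liver/brain/lung, and the 11 are 5/25/70, 70/5/25, 25/70/5, 70/25/5, 45/45/10, 55/20/25, 50/30/20, 55/30/15, 50/40/10, 60/35/5 and 65/34/1. The series was made to test how well computation can take mixed tissue signals apart. The 3 arrays of a group are technical replicates of material from 1 animal, so every SD, SE and p below measures the spread between arrays and none measures the spread between rats.

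Chemokines are small secreted proteins that steer the movement of leukocytes through G-protein-coupled receptors. CXC ligands that carry a glutamate-leucine-arginine motif act on Cxcr1 and Cxcr2 and draw neutrophils, the interferon-induced ligands Cxcl9, Cxcl10 and Cxcl11 act on Cxcr3 of activated T cells, and inflammatory CC ligands act on monocytes, eosinophils and lymphocytes. A homeostatic group, such as Ccl19 and Ccl21, guides cells into lymphoid tissue, and many of the inflammatory genes are induced through NF-kB.

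The windows from 150 to 31 bases before the annotated start are printed below for 5 ligands, 5′ to 3′ on the gene's strand, from RefSeq on the GRCr8 build. They were chosen because each holds the NF-kB motif, marked in capitals, yet their tissue patterns differ: Cxcl1 and Ccl20 were enriched in lung, Cxcl11 in liver, and Cxcl2 and Cxcl6 in none.
Cxcl1 (chr14:17479352-17479471, minus strand): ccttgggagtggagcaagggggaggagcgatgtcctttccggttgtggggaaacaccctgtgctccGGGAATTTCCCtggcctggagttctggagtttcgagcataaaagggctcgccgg
Cxcl2 (chr14:17467286-17467405, minus strand): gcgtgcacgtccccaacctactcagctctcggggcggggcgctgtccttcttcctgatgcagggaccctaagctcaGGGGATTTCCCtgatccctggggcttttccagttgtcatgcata
Cxcl6 (chr14:17596448-17596567, minus strand): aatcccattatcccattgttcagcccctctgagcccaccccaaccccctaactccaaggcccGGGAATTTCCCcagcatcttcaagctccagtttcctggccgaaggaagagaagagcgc
Cxcl11 (chr14:15973578-15973697, plus strand): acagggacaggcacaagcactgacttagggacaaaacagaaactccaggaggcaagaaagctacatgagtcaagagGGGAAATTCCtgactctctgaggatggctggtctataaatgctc
Ccl20 (chr9:91837009-91837128, plus strand): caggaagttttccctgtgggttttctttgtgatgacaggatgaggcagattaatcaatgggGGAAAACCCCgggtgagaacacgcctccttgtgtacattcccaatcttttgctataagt
Cxcl1 and Cxcl6 hold the same capital letters. Promoters of 29 of the 38 genes were in the table, and Ccr4, Ccl5, Ccl11, Ccl4, Ccl2, Cxcl3, Ccl3, Cxcr5 and Ccr10 had no entry. The NF-kB motif was found on either strand in 8 of the 29 promoters (27.6%), those of Cxcl1, Cxcl2, Cxcl6, Cxcl10, Cxcl11, Ccl9, Ccl20 and Ccr3, and in 1400 of 33469 promoters of all genes (4.18%). These 8 include Cxcl11 and Ccl9, enriched in liver, and Cxcl1 and Ccl20, which are 2 of the 11 lung-enriched genes with a promoter in the table. The others were enriched in no tissue. The interferon-stimulated response element core GAAANNGAAA was found in 2 of the 29 (6.90%) against 3.92% of all promoters, and TATAAA in 8 (27.6%) against 14.2%. A match describes letters in a 300-base window and does not show that a factor binds there.

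The tissue labels were borne out by their defining genes. All 5 hepatocyte genes were enriched in liver, all 5 neuronal genes in brain and all 4 alveolar type 2 genes in lung. Within a group the median SD over probe sets was 0.12 in liver, 0.09 in brain and 0.09 in lung on the log2 scale. Genes of other cell types were often enriched in lung as well, where 11.5% of all genes were: 5 of 5 pan-leukocyte, 4 of 6 neutrophil, 7 of 8 T cell, 2 of 4 B cell, 2 of 7 macrophage, 4 of 4 endothelial, 5 of 5 fibroblast and smooth muscle and 3 of 3 heart muscle genes. The macrophage list was split, since 2 of its 7 genes, Clec4f (41.3-fold) and Cd14 (3.6-fold), were enriched in liver, where 9.61% of all genes were. The summed linear signal of the neutrophil list was 207 to 263 in liver, 92 to 95 in brain and 1687 to 1794 in lung, that of the T cell list 240 to 245, 152 to 166 and 857 to 928, and that of the pan-leukocyte list 950 to 1017, 689 to 721 and 6009 to 6217. Such sums hold the background signal of every probe set and cannot be 0, so they do not show that a cell type is present in a tissue. The part of these lists in the chemokine results was not tested. In these bulk tissues, fewer cells of a type and less RNA per cell cannot be told apart. Albumin transcript (Alb), normally made by hepatocytes, stood at 12.21 in brain against 14.31 in liver and 5.07 in lung. The other 4 hepatocyte genes read 3.47 to 6.72 in brain, and carry-over of liver RNA into the brain sample as a source of the Alb signal was not tested.

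The lung held the most chemokine genes. A gene was called enriched in a tissue when its limma test against each of the other two tissues had an adjusted p under 0.05 and the level was at least 2-fold higher. By that rule 16 of the 38 genes (42.1%) were enriched in lung, where 11.5% of all genes were. Liver had 5 (13.2%) against a background of 9.61%, brain had 1 (2.63%) against 11.7%, and 16 met the rule in no tissue. By highest mean alone, 23 genes peaked in lung, 13 in liver and 2 in brain, against 33.1%, 38.1% and 28.8% of all genes. With each array aligned to the curve of its spiked hybridisation controls these counts became 30, 6 and 2, against 52.7%, 12.3% and 35.1% of all genes, so that peaks in liver by a small margin depended on the scaling. In all 3 tissues 22 of the 38 genes stayed below the median of highest group means over all probe sets, 6.73 on the log2 scale. As many probe sets lie below a median as above it, so this count does not set the members apart.

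**Figure D1:**
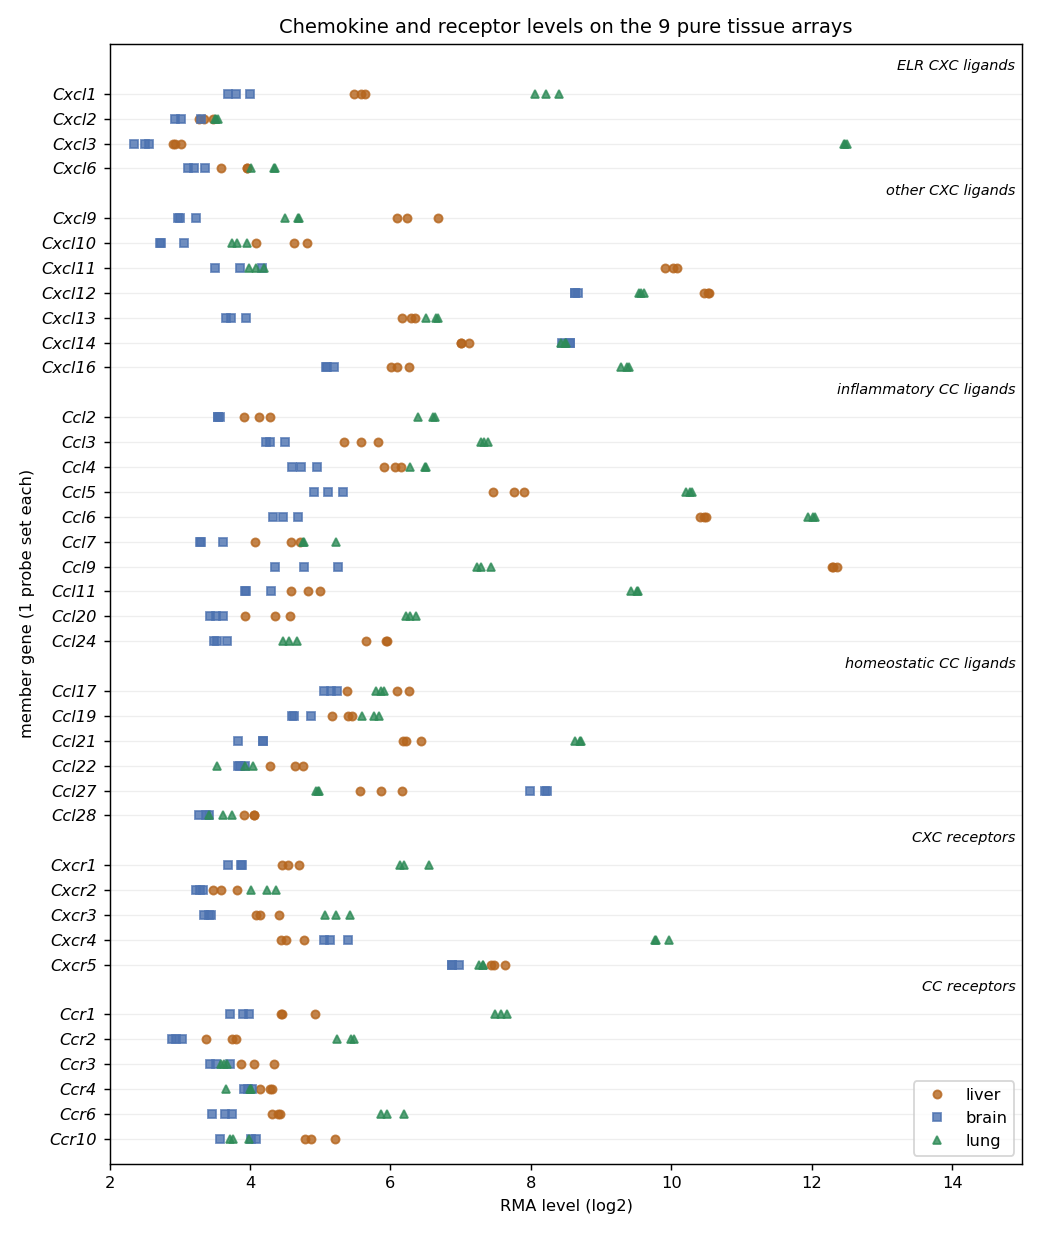
Log2 RMA level of each of the 38 genes on every array of the 3 pure tissues, 1 point per array and 1 colour per tissue, with genes ordered by role. Lung arrays lie apart above liver and brain for Cxcl3, Ccl11 and Cxcr4, and liver arrays for Cxcl11 and Ccl9.

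Among the 4 neutrophil-attracting CXC ligands, all peaked in lung as deposited, Cxcl2 moved to liver after median centring, and 2 were enriched in lung. Cxcl3 measured 2.94, 3.01 and 2.91 in liver, 2.51, 2.56 and 2.34 in brain and 12.51, 12.46 and 12.48 in lung. The lung arrays stood far above all others, and the liver and brain arrays lay at about the level of the bacterial dap and lys control probe sets, 2.57 to 3.09 in liver and 2.50 to 2.85 in brain. The lung level was 739-fold that of liver (adjusted p = 5.46e-44, limma), a ratio whose lower side is background. Cxcl1, another ligand of Cxcr2, measured 5.58, 5.64 and 5.48 in liver, 4.0, 3.68 and 3.80 in brain and 8.22, 8.06 and 8.40 in lung. Its 3 groups did not overlap, and lung exceeded liver 6.32-fold (adjusted p = 3.86e-19). Cxcl2 and Cxcl6 were dim, and lung exceeded liver by 1.12-fold (adjusted p = 0.134) and 1.32-fold (adjusted p = 0.00471).

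The Cxcl3 result rested on which probe set was read. Of 5 probe sets named Cxcl3, 1388033_at gave the values above, and in 1393182_at lung exceeded liver 91.3-fold. The other three, 1370633_at, 1370634_x_at and 1388032_a_at, differed by 1.49-fold, 1.32-fold and 1.24-fold and lay between 5.19 and 6.42 on the lung arrays. All 5 were highest in lung, but only a pair of them showed the large difference, and which of them reads the annotated transcript was not tested. The size of every Cxcl3 value below therefore belongs to 1388033_at.

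**Figure D2:**
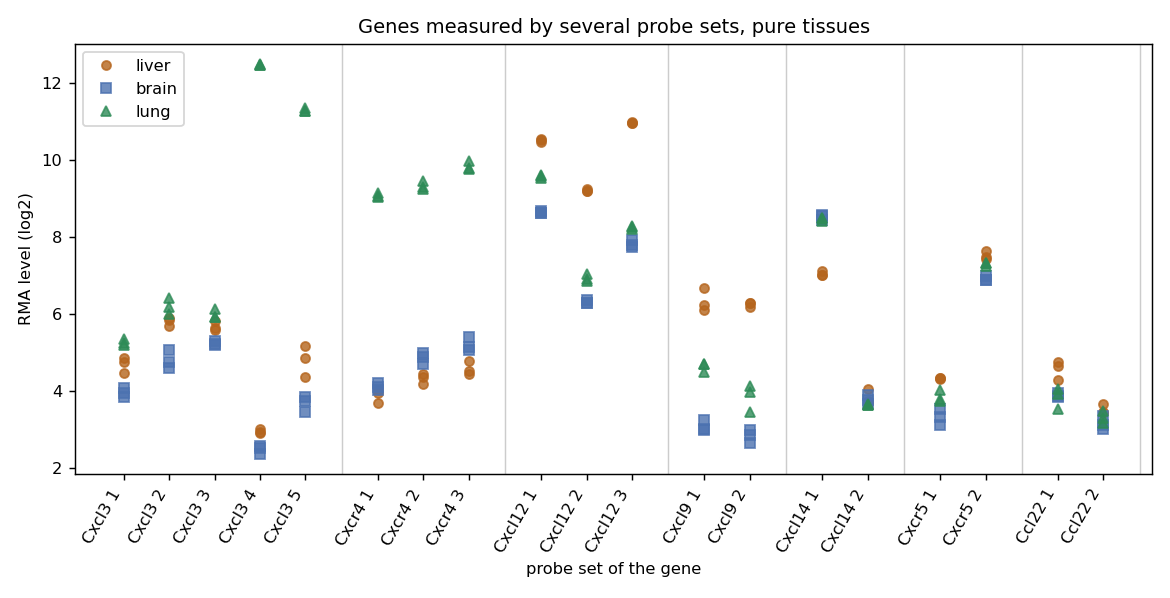
Log2 RMA level in liver, brain and lung, 1 point per array, for every probe set of the 7 genes that have more than 1, numbered in the order of their probe set names. Cxcl3 4 and Cxcl3 5 are 1388033_at and 1393182_at and stand apart from the other Cxcl3 probe sets in lung, while the 3 Cxcr4 probe sets run together.

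The other 7 CXC ligands split between the tissues, with 2 enriched in liver, 1 in lung and none in brain. Cxcl11, an interferon-induced ligand of Cxcr3, measured 9.91, 10.08 and 10.02 in liver, 3.51, 4.16 and 3.86 in brain and 4.20, 4.08 and 3.99 in lung. Only the liver arrays were high, 60.2-fold above lung (adjusted p = 1.34e-33). Cxcl9, of the same interferon-induced group, measured 6.23, 6.68 and 6.10 in liver, 2.98, 3.01 and 3.23 in brain and 4.69, 4.5 and 4.68 in lung, which put liver 3.28-fold above lung (adjusted p = 9.69e-13). Cxcl10, the third of that group, was highest in liver by 1.59-fold over lung, short of the 2-fold limit, and 0.27 (log2) below lung after alignment to the hybridisation controls. Cxcl16, a membrane-bound ligand of Cxcr6, measured 6.26, 6.01 and 6.09 in liver, 5.09, 5.08 and 5.19 in brain and 9.40, 9.29 and 9.37 in lung. The lung arrays were 9.39-fold above liver (adjusted p = 7.32e-24).

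Cxcl12, the ligand of Cxcr4, measured 10.46, 10.53 and 10.53 in liver, 8.63, 8.67 and 8.63 in brain and 9.61, 9.57 and 9.54 in lung. These groups did not overlap, and liver exceeded lung by 1.91-fold (adjusted p = 1.34e-19), short of the limit; its other two probe sets gave 6.61-fold and 4.86-fold and would have been called. Cxcl14 lay at 8.55, 8.44 and 8.56 in brain, 8.49, 8.42 and 8.49 in lung and 7.01, 7.01 and 7.13 in liver. Its brain and lung arrays overlapped (1.03-fold, adjusted p = 0.444). Cxcl14 was the only gene whose probe sets peaked in different tissues, the dimmer one being 1.03-fold higher in liver than in brain (adjusted p = 0.508). Cxcl13, which guides B cells, was 1.27-fold higher in lung than in liver.

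Of 10 inflammatory CC ligands, 6 were enriched in lung, 2 in liver and none in brain. Ccl11 (eotaxin), which attracts eosinophils through Ccr3, measured 4.99, 4.83 and 4.58 in liver, 3.94, 4.30 and 3.92 in brain and 9.51, 9.52 and 9.43 in lung. Lung exceeded liver 25.8-fold (adjusted p = 4.41e-29). Ccl5 (RANTES), made by T cells among others, measured 7.76, 7.90 and 7.46 in liver, 5.11, 5.33 and 4.91 in brain and 10.27, 10.21 and 10.29 in lung. The order was lung, liver, brain without overlap, and lung exceeded liver 5.86-fold (adjusted p = 1.52e-23). Ccl2, the main monocyte attractant, measured 3.92, 4.28 and 4.12 in liver, 3.54, 3.58 and 3.54 in brain and 6.60, 6.39 and 6.63 in lung, a 5.41-fold excess over liver (adjusted p = 3.99e-20).

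Ccl6 was high in lung and liver alike and low in brain. It measured 10.47, 10.40 and 10.50 in liver, 4.33, 4.69 and 4.46 in brain and 12.01, 11.95 and 12.05 in lung. Lung exceeded liver by 2.92-fold (adjusted p = 5.43e-23). Ccl20, the ligand of Ccr6, and Ccl3, a ligand of Ccr1, exceeded their liver levels in lung by 4.03-fold and 3.39-fold. Ccl4 and Ccl7 were 1.31-fold and 1.38-fold higher and met no limit.

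Ccl9 was the liver counterpart. It measured 12.36, 12.30 and 12.29 in liver, 4.35, 4.76 and 5.26 in brain and 7.29, 7.23 and 7.43 in lung. All liver arrays were far above the rest, 32.0-fold above lung (adjusted p = 1.42e-30). Ccl24, a further ligand of Ccr3, measured 5.95, 5.94 and 5.65 in liver, 3.53, 3.48 and 3.68 in brain and 4.46, 4.55 and 4.66 in lung, or 2.44-fold above lung in liver (adjusted p = 1.23e-13).

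The 6 homeostatic CC ligands gave 1 enriched gene in brain, 1 in lung and none in liver. Ccl27, a ligand of Ccr10 known from skin, was the only member enriched in brain. It measured 7.99, 8.21 and 8.23 in brain, 5.56, 5.87 and 6.17 in liver and 4.94, 4.99 and 4.97 in lung. Brain exceeded liver 4.84-fold (adjusted p = 1.32e-20). The span of Ccl27 overlaps that of Il11ra1, whose level ran otherwise, 7.98 ± 0.06 in liver, 6.86 ± 0.06 in brain and 7.65 ± 0.04 in lung (SD, n = 3). Ccl21, which binds Ccr7, measured 6.23, 6.44 and 6.18 in liver, 4.19, 3.83 and 4.19 in brain and 8.70, 8.63 and 8.72 in lung, so that lung exceeded liver 5.28-fold (adjusted p = 1.91e-19). Ccl19, the other Ccr7 ligand, was 1.31-fold higher in lung than in liver. Ccl17 measured 6.27, 5.38 and 6.09 in liver and 5.79, 5.91 and 5.87 in lung, which overlapped (1.04-fold, adjusted p = 0.67), and lay 0.88 (log2) lower in liver than in lung after alignment to the hybridisation controls.

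Of the 11 receptors, 6 were enriched in lung, 1 in liver and none in brain. Cxcr4, the receptor of Cxcl12, measured 4.44, 4.51 and 4.77 in liver, 5.40, 5.13 and 5.05 in brain and 9.79, 9.77 and 9.97 in lung. It was the only lung-enriched member whose next tissue was brain, by 25.1-fold (adjusted p = 9.80e-30), and its other two probe sets gave 31.6-fold and 22.3-fold. Ccr1, a receptor of Ccl3 and Ccl5 on monocytes and neutrophils, measured 4.44, 4.45 and 4.93 in liver, 3.99, 3.71 and 3.90 in brain and 7.58, 7.49 and 7.65 in lung, a 7.81-fold excess over liver (adjusted p = 1.71e-22). Ccr2, the Ccl2 receptor, was 3.36-fold higher in lung than in liver, Cxcr1 3.31-fold, Ccr6 3.07-fold and Cxcr3 2.04-fold (adjusted p = 4.09e-11). Cxcr3 lay close to the 2-fold limit and fell short of it without liver replicate 1, liver replicate 3 or lung replicate 1 (log2 differences of 0.96, 0.99 and 0.94). Cxcr2 fell short at 1.5-fold.

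Ccr10 was the only receptor enriched in liver, with 5.21, 4.78 and 4.88 in liver, 4.09, 3.57 and 4.02 in brain and 3.76, 3.72 and 3.99 in lung. Its excess over brain was 2.09-fold (adjusted p = 8.67e-10) and fell below 2-fold without liver replicate 1 or brain replicate 2 (log2 differences of 0.94 and 0.90). Ccr3, Ccr4 and Cxcr5 were highest in liver as deposited, by 1.38-fold, 1.21-fold and 1.16-fold over the next tissue. The Cxcr5 probe set used read 7.51 in liver, 6.91 in brain and 7.30 in lung, and its dimmer one 4.32, 3.32 and 3.84. The span of Cxcr5 overlaps that of Bcl9l, which read 7.22 in liver, 6.70 in brain and 7.61 in lung. Which gene the brighter Cxcr5 probe set reads was not tested. After alignment to the hybridisation controls Ccr3 and Cxcr5 were highest in lung and Ccr4 in brain, with liver 0.59 below brain on the log2 scale for Ccr4 (adjusted p = 0.0236, limma).

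Some ligands and their receptors peaked in the same tissue and others did not. Ccl2 and Ccr2 were enriched in lung alike, and Cxcl1 and Cxcl3 peaked there together with Cxcr2. Cxcl12 was highest in liver while Cxcr4 was highest in lung, and Cxcl9 and Cxcl11 were enriched in liver while Cxcr3 was enriched in lung. Cxcl13 peaked in lung while its receptor Cxcr5 was highest in liver as deposited and in lung after alignment to the hybridisation controls. Among pairs picked after their values were seen, Ccl20 and Ccr6 were both enriched in lung, and Ccl27 was enriched in brain while Ccr10 was enriched in liver. After alignment to the hybridisation controls the liver lead was 0.78 (log2) for Cxcl9 and 0.20 for Ccr10, both under the 2-fold limit.

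The enrichment calls are built from pairwise calls, so the pairwise counts are no separate support for them. Against brain, lung was at least 2-fold higher for 24 of 38 genes (63.2%), where 20.8% of all genes were, and brain was higher for 1, Ccl27, against a background of 15.5%. Lung exceeded liver for 17 genes (20.6% of all genes), and liver exceeded lung for 5 (13.8% of all genes). Liver exceeded brain for 15 genes (19.3% of all genes), and brain exceeded liver for 2, Ccl27 and Cxcl14 (20.0% of all genes). The median log2 difference of members was -1.61 for brain minus lung against -0.09 for all genes, -0.43 for liver minus lung against 0.03, and 0.76 for liver minus brain against 0.19. The excess of liver over brain moved with the scaling. After alignment to the hybridisation controls the median for liver minus brain was -0.10 over members and -0.62 over all genes. The median for brain minus lung was then -1.68 over members and -0.18 over all genes. Under the same scaling 22 members were enriched in lung, where 16.8% of all genes were, and only Cxcl11 and Ccl9 were enriched in liver, where 5.45% of all genes were.

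Several of the genes lie side by side, by gene order in GRCr8. On chromosome 14, Cxcl11, Cxcl10 and Cxcl9 are consecutive protein-coding genes and were highest in liver as deposited, Cxcl10 being highest in lung after alignment to the hybridisation controls. Cxcl2, Cxcl1, Cxcl3 and Cxcl6 lie close together and were highest in lung as deposited, Cxcl2 being highest in liver after median centring. On chromosome 10, Ccl2, Ccl7 and Ccl11 are consecutive and all peaked in lung. The run Ccl5, Ccl9, Ccl6, Ccl3 and Ccl4 on the same chromosome was split, since Ccl9 peaked in liver and its neighbours in lung. On chromosome 5, Ccl27 peaked in brain while the adjacent Ccl19 peaked in lung.

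Other genes of the chemokine system, outside the 4 families by name, were read beside them. Of 16 listed, 11 were measured, 4 of which were enriched in lung (11.5% of all genes) and 2 in brain (11.7% of all genes). Ackr3, the scavenger receptor for Cxcl12, exceeded its next tissue in lung by 7.26-fold, the chemerin receptor Cmklr1 by 12.0-fold, Ccrl2 by 8.46-fold and platelet factor Pf4 by 6.81-fold. Cx3cl1 (fractalkine), the neuronal ligand of microglial Cx3cr1, stood 6.83-fold above the next tissue in brain, while Cx3cr1 differed by 1.01-fold between its 2 highest tissues (adjusted p = 0.892). Of 15 measured genes of receptor signalling, 6 were enriched in lung (11.5% of all genes) and 2 in brain (11.7% of all genes). Those in lung included Grk5 (8.33-fold), which desensitises receptors, Rac2 (6.58-fold), a small GTPase of blood cells, and Rgs1 (6.01-fold). Of 14 measured cytokine and NF-kB genes, 5 were enriched in lung (11.5% of all genes) and none elsewhere, with Tnfaip3 at 4.33-fold, Il1b at 3.55-fold and Nfkbia at 3.49-fold.

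The mixtures show what becomes of these signals when lung is a small part of the sample. For each mixture a level was computed from the liver and brain arrays alone, in their labelled ratio and on the linear scale, as if no lung were present, and the mixture was called above it at an adjusted p under 0.05. At 1% lung, in 65/34/1, a single member was above that level, Cxcl3, where 12.6% of all genes were. Its arrays read 6.45, 6.69 and 6.56 against a level of 2.80 without lung, an excess of 3.76 ± 0.06 on the log2 scale (SE, adjusted p = 2.69e-31, limma). Its second bright probe set, 1393182_at, exceeded the level without lung by 1.19 ± 0.12, and the 3 dim ones lay 0.25 to 0.34 below it. Cxcr4 exceeded its level without lung by 0.11 (adjusted p = 0.301) and Ccl11 lay at -0.06 (adjusted p = 0.636), and neither passed the test. With the share-weighted mean of log2 values as the level without lung, 7 members were above at 1% (22.3% of all genes). Of these only Cxcl3 and Ccl6 are lung-enriched. The log2-based level cannot lie above the linear one, so a gene with far apart liver and brain levels can pass it without any lung. Ccl6, at 10.46 in liver and 4.49 in brain, was called below the linear level at 1%. Its call above the log2-based level is therefore no sign of lung.

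Most members lay below the level without lung at that share. In 65/34/1, 27 of 38 were called below, but so were 53.7% of all genes, and the scaling to the hybridisation controls left 0 of the 38 below and Cxcl3 above. That scaling also widened the spread between arrays, which all groups share in the fit. The median SD went from 0.08 to 0.16 within 65/34/1 and from 0.10 to 0.91 within 60/35/5. The part of this wider spread in the lost calls was not tested. The median log2 difference of mixtures from the full share-weighted sum was -0.21 over all genes and -0.32 over the members; the part of this offset in the counts was not tested.

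The counts above that level were larger in the mixtures with more lung. The 3 mixtures with 5% lung had 6 members above the level without lung in 25/70/5 (5.12% of all genes), 5 in 70/25/5 (17.5%) and 4 in 60/35/5 (12.5%). At 10% there were 8 in 45/45/10 (13.1%) and 7 in 50/40/10 (13.1%), at 15% 10 in 55/30/15 (17.3%) and at 20% 14 in 50/30/20 (18.6%). At 25% there were 16 in 55/20/25 (21.7%) and 17 in 70/5/25 (24.8%), and at 70% 22 in 5/25/70 (29.9%). The members' share was under that of all genes in 70/25/5, 60/35/5 and 65/34/1 and above it in the other mixtures. At 5% lung more members were below the level without lung than above it, 19 in 25/70/5 (40.7% of all genes), 24 in 70/25/5 (52.5%) and 14 in 60/35/5 (52.4%).

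Read over the 16 lung-enriched members alone, 1 was above at 1% lung, 4 to 6 at 5%, 7 and 8 at 10%, 10 at 15%, 13 at 20%, 15 and 15 at 25% and 16 at 70%. Called below were 10 of the 16 at 1%, 3 in 25/70/5, 5 in 70/25/5, 3 in 60/35/5, 1 in 45/45/10 and 0 in the mixtures with more lung and in 50/40/10. The same share over all 1635 lung-enriched genes was 9.30% at 1%, 27.0% to 33.3% at 5%, 47.2% and 48.3% at 10%, 63.5% at 15%, 76.9% at 20%, 87.0% and 92.7% at 25% and 99.9% at 70%. The lowest lung share with at least 1 mixture called above differed between members. Cxcl3 came at 1%, and Cxcr4, Ccl11, Cxcl16, Ccl5 and Ccl6 at 5%. Ccl21 and Ccr1 followed at 10%, Cxcl1 and Ccr6 at 15%, Ccl2, Ccl20 and Cxcr1 at 20%, and Ccl3 and Ccr2 at 25%. Cxcr3, with a lung excess of 2.04-fold, was above only at 70%.

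**Figure D3:**
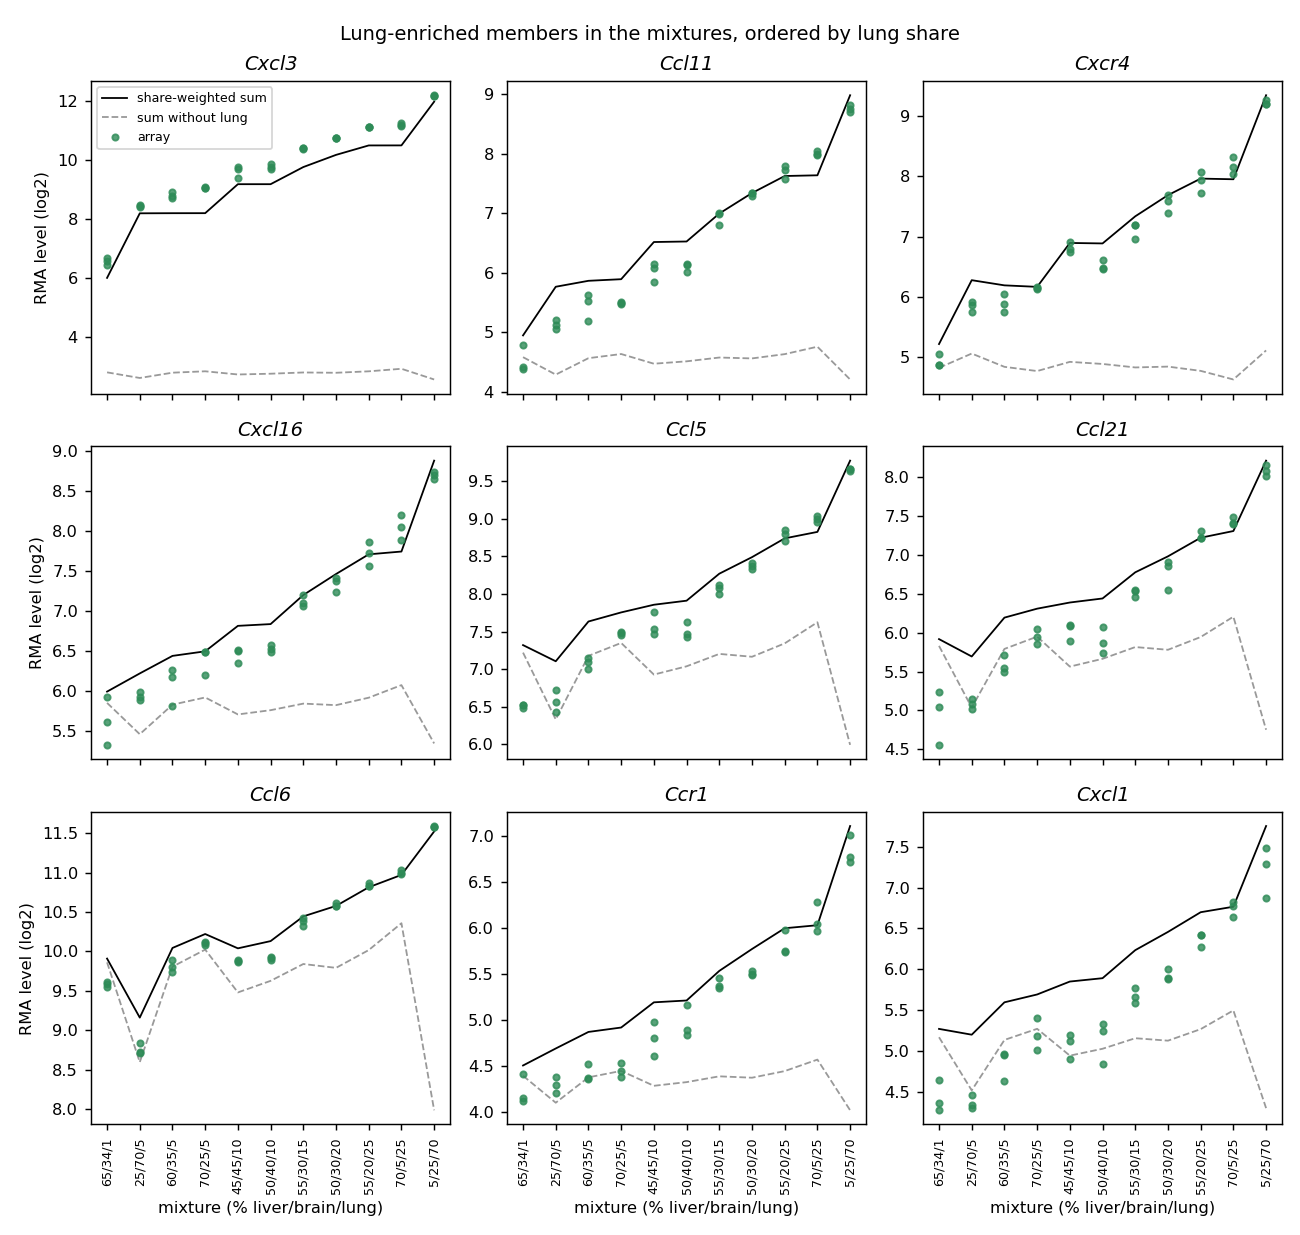
Log2 RMA level of 9 lung-enriched genes in the 11 mixtures, ordered by percent of lung, 1 green point per array; the solid line is the sum computed from the labelled shares and the dashed line the level without lung. Cxcl3 leaves the level without lung at 1% lung, Cxcr4 and Ccl11 do so at 5%.

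By label, 60/35/5 and 65/34/1 differ by 4 percentage points of lung, 5 of liver and 1 of brain. Here 7 of 38 members (18.4%) were higher in 60/35/5, where 3.45% of all genes were, and 0 were lower, where 0.345% of all genes were. Cxcl3 read 8.78, 8.71 and 8.90 in 60/35/5, which was 4.69-fold above 65/34/1 (adjusted p = 1.30e-22). Cxcr4 read 5.75, 6.05 and 5.87 in 60/35/5 and 4.87, 5.04 and 4.86 in 65/34/1, a log2 difference of 0.97 (adjusted p = 1.04e-08). Ccl11 read 5.19, 5.52 and 5.63 against 4.42, 4.39 and 4.78, a difference of 0.92 (adjusted p = 1.16e-07). In each of these genes the arrays of the 2 mixtures did not overlap. Ccl21 differed by 0.64, Ccl5 by 0.57, Cxcl16 by 0.46 and Ccl6 by 0.23, the last with an adjusted p of 0.0178. All 7 are lung-enriched genes. After the scaling to hybridisation controls only Cxcl3 passed, and under it the median SD within 60/35/5 went from 0.10 to 0.91.

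A further 3 pairs of mixtures were compared. In 70/5/25 against 70/25/5, which trades brain for lung, 27 members were higher (31.4% of all genes) and Ccl27 alone was lower (23.0% of all genes). In 55/20/25 against 55/30/15, a smaller trade of the same kind, 13 were higher (14.7% of all genes) and again Ccl27 alone was lower (10.3% of all genes), but none passed after the scaling to hybridisation controls. Under that scaling the median SD went from 0.08 to 0.16 within 55/20/25 and from 0.07 to 0.13 within 55/30/15. In 5/25/70 against 70/25/5, which trades liver for lung, 23 were higher (37.3% of all genes) and 8 lower (32.7% of all genes), the latter being Cxcl9, Cxcl11, Cxcl12, Ccl9, Ccl22, Ccl24, Ccl27 and Ccr10. The members' median log2 differences in these pairs were 0.63, 0.20 and 0.55, against 0.07, 0.02 and 0.00 over all genes.

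The share of lung that each gene alone would report was then computed from its mixture and pure levels on the linear scale. Cxcl3 gave 1.54 ± 0.14% at a labelled 1% (SD, n = 3), 5.93 ± 0.20%, 9.22 ± 0.06% and 7.67 ± 0.51% in 25/70/5, 70/25/5 and 60/35/5, and 80.3 ± 1.07% at 70%. Its reading was above the label in all 11 mixtures. Cxcr4 gave 0.27 ± 0.24% at 1%, 3.55 ± 0.69% in 60/35/5 and 64.0 ± 1.64% at 70%. Ccl6 gave 1.14 ± 1.18% in 60/35/5, 25.8 ± 0.63% in 55/20/25 and 73.1 ± 0.36% at 70%. At a labelled 1% the estimate was below 0 for 14 of the 16 lung-enriched members, Cxcl3 and Cxcr4 being the others.

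Over all 11 mixtures, 6 of 38 members (15.8%) lay at least 1.5-fold below the sum computed from the labelled shares, where 5.56% of all genes did, and 0 lay above it, where 0.492% did. The mean log2 departure was -1.12 ± 0.09 for Cxcl9 (SE, adjusted p = 1.35e-12), -1.01 ± 0.06 for Ccl24 (adjusted p = 1.32e-15) and -0.64 ± 0.05 for Cxcl13 (adjusted p = 2.36e-12). It was -0.62 ± 0.07 for Cxcl11, -0.59 ± 0.08 for Ccl7 and -0.59 ± 0.07 for Cxcl10. Each of the 6 was below the sum in 11 of 11 mixtures, as were 25 of the 38 members (65.8%) and 62.2% of all genes. The interferon-induced ligands Cxcl9, Cxcl10 and Cxcl11 were all among the 6 called. Cxcl9, Cxcl10, Cxcl13, Ccl7 and Ccl24 were dim, with highest pure tissue means of 6.34, 4.51, 6.61, 4.91 and 5.85. These lie under the median of highest group means, 6.73. Cxcl10, Cxcl11, Cxcl13 and Ccl7 were no longer called after the scaling to hybridisation controls, under which the spread between arrays was wider. Cxcl10 was lost in 22 and Ccl7 in 6 of the 42 fits that left out 1 array. Cxcl1 and Ccr10 came next at -0.58 each.

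Some members departed the other way by less than 1.5-fold. Cxcl3 was above the sum in 11 of 11 mixtures, by 0.55 ± 0.05 on the log2 scale (1.46-fold, adjusted p = 1.64e-11), and its second bright probe set by 0.24 ± 0.09 in 9 of 11. Ccl9 was above in 11 of 11 by 0.16 (adjusted p = 0.0426), and Ccl27 differed by 0.07 (adjusted p = 0.285).

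**Figure D4:**
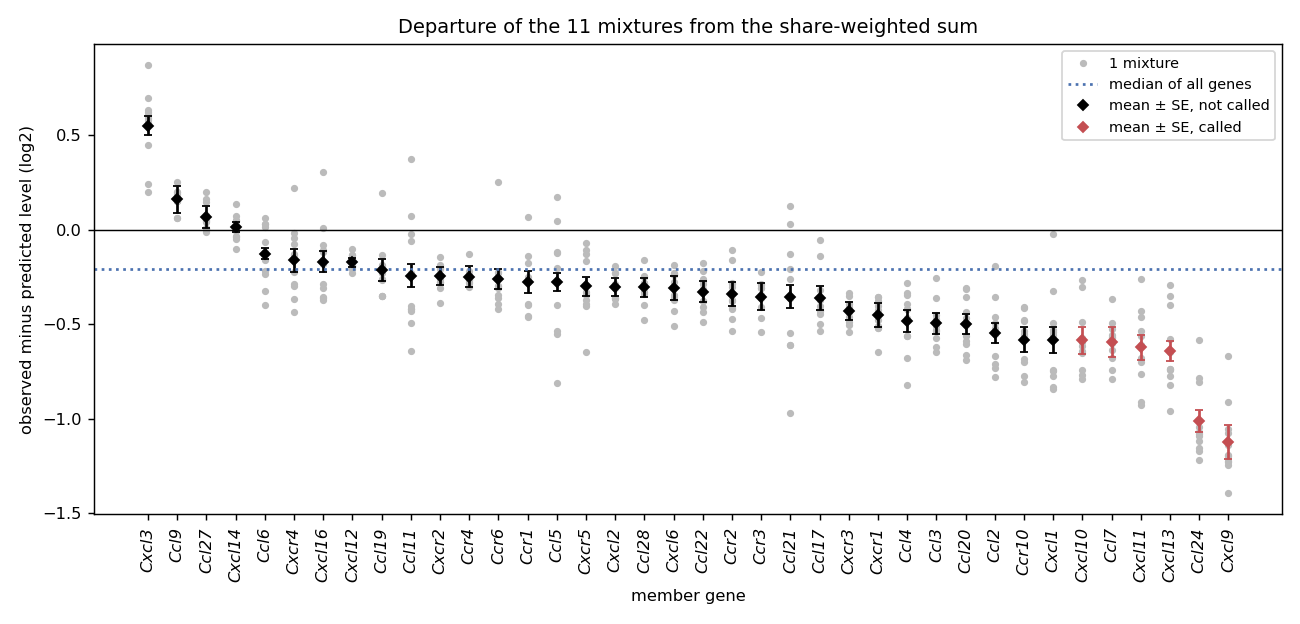
Mean log2 departure of the mixtures from the sum computed from the labelled shares, for each gene, with 1 grey point per mixture and a diamond for the mean ± SE, red where called; the dotted line is the median of all genes, -0.21. Cxcl9 at -1.12 and Ccl24 at -1.01 lie lowest, and Cxcl3 at 0.55 lies highest.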

How the data were processed

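The deposited table holds log2 expression values made by the authors with RMA (background correction, quantile normalisation and probe summary), per the labels and the submitters' processing notes; no version is given. All 42 arrays were used. Gene names came from the platform annotation: of 31042 probe sets left after 57 control probe sets, 20826 had 1 gene, 436 several and 9780 were not listed. The gene family and lists were chosen with earlier results of these data known; membership followed from gene symbols.

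A single limma 3.58.1 model (R 4.3.3) with 1 mean per group was fitted to all probe sets, with 28 residual degrees of freedom and Benjamini-Hochberg adjustment. Pure tissues needed an adjusted p under 0.05 and 2-fold, departures from the share-weighted linear sum 1.5-fold, and mixture contrasts the adjusted p alone. An exact permutation test of 3 against 3 arrays cannot pass 0.05, so none was used. Named with full values were up to 8 lung-enriched, 4 liver-enriched and 4 brain-enriched members by fold over the next tissue; fixed ligand-receptor pairs, called departures and disagreeing probe sets were also named, and Ccl6, Ccr10 and Ccl17 were added after their values were seen. Array number limits the precision. The fit was tested on simulated data. Figures used Python 3.11.15 and matplotlib 3.10.9. Alternatives were other scalings, filters, probe set choices and leaving out each array.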

Additional observations from a re-analysis of the deposited data

How the results depend on the processing

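Of the enriched genes and called departures, 1 reversed in any alternative: Cxcl11 departed upward (1.23, log2) when the expected value was the share-weighted mean of log2 values. No paired analysis was possible because the labels give no replicate numbers and no pairing. The replicate numbers used here follow the order of the samples. Leaving out probe sets that are dim in all groups left 16 members and so lowered most counts: liver against brain 10 (from 17), liver against lung 13 (22), brain against lung 12 (25), enriched in liver 2 (5), enriched in lung 10 (16), departures 1 (6), 5/25/70 against 70/25/5 16 (31) and 70/5/25 against 70/25/5 13 (28). Scaling to the hybridisation controls gave departures 2, enriched in liver 2, 60/35/5 against 65/34/1 1 (from 7) and 55/20/25 against 55/30/15 0 (from 14). That scaling also raised the median SD within every group. Subtracting each array's 5th percentile gave departures 18 and liver against brain 28, and median centring gave departures 13. With the 5th percentile subtracted the median for liver minus brain was 1.45 over members and 0.13 over all genes. The cause of these changes was not tested. The share-weighted log2 expectation gave 7 members above at 1% lung (from 1). That expectation never lies above the linear one, which moves differences from it upward, as for Cxcl11. The counts in this paragraph carry no share of all genes, so they do not set the members apart from other genes. Without 1 array, counts ranged over 15 to 19 for liver against brain, 21 to 22 for liver against lung, 23 to 25 for brain against lung, 4 to 5, 1 to 1 and 15 to 16 for enrichment in liver, brain and lung, 4 to 8 for departures, 1 to 1 above at 1% lung, and 6 to 8, 24 to 30, 12 to 14 and 30 to 32 for 60/35/5 against 65/34/1, 70/5/25 against 70/25/5, 55/20/25 against 55/30/15 and 5/25/70 against 70/25/5. Median centring took Cxcr3 under 2-fold (0.77, log2). Among members enriched in no tissue, the highest tissue changed under the hybridisation controls for Cxcl10, Cxcl14, Ccl17, Ccl22, Ccl28, Cxcr5, Ccr3 and Ccr4, and after median centring for Cxcl2. Signal at the level of bacterial controls limits the Cxcl3 fold.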
